A study of Mus musculus with 12 samples.

Results

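The untreated libraries of *Mbnl* double knockout (DKO) cells were compared with those of their control, 6 libraries of the 12 in the series, across every gene with at least 1 TPM in at least 3 of the 12 libraries. Of the 23022 genes listed, 11663 passed this filter and were tested. All cells were B16-F10, a melanoma line from the C57BL/6 mouse, and all carried Cas9 from a lentivirus. The DKO cells received paired guide RNAs against *Mbnl1* and *Mbnl2*, and the control cells received a guide pair called non-targeting control (NTC) by the study and no template control by the labels. Each genotype had 3 replicates grown without interferon gamma (IFNγ), which the labels call unstimulated, and the remaining 6 libraries came from the same cells given IFNγ. Per the study's methods, the Cas9 cells were 1 sorted clone. The study describes the experiments of this set as done in a polyclonal edited population with some MBNL protein left, before it made monoclonal lines, without naming the RNA libraries in that sentence. No source used here names more than 1 edited population or line per genotype for these libraries, nothing says that the replicates were separate cultures, and the p-values measure the spread between these libraries only.

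Muscleblind-like (MBNL) proteins are RNA-binding proteins with zinc fingers that bind YGCY motifs in pre-mRNA and mRNA. They regulate alternative splicing and polyadenylation, and also the stability and localization of mRNA in the cytoplasm. Their sequestration by expanded CUG repeats underlies myotonic dystrophy. *Mbnl1* and *Mbnl2* overlap in function, and *Mbnl3* is the third member of the family. The values here are at the level of whole genes, so splicing was not measured.

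Values are in TPM, a unit scaled to transcript length and to the total of the library, from which read depth cannot be recovered. Differences are DKO minus NTC on the log2(TPM + 1) scale, which understates the change of genes near 1 TPM. A gene is named as called, risen or fallen where limma gave a Benjamini-Hochberg adjusted p under 0.05 over all 11663 genes. Since the total is fixed, the TPM of a gene can also move when other genes move. The listed genes summed to between 844185 and 860268 TPM in NTC and between 818274 and 826280 TPM in DKO libraries. The melanocyte lineage markers were abundant in both genotypes, with 7 of 7 detected and a summed level of 16647 to 17554 TPM in NTC and of 11124 to 11452 TPM in DKO libraries. Of 19 markers of haematopoietic cells, fibroblasts, endothelium and keratinocytes, 13 were at 0 in all 6 libraries, among them *Ptprc*, *Cd3e*, *Dcn*, *Cdh5* and *Krt14*. The haematopoietic markers summed to 1.51 to 1.97 TPM in NTC and 2.53 to 3.11 TPM in DKO libraries, nearly all of it *Cd68*.

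Untreated DKO and NTC cells differed in many genes by small amounts. The test called 4247 genes, 36.4% of those tested, with 1982 higher in DKO (17% of those tested) and 2265 lower (19.4%). The counts given for gene lists further on are to be read beside these shares. For 3378 of the 4247, or 79.5%, the difference was under 0.5 in size, and the median size among called genes was 0.32. A difference of at least 1 was called for 123 genes, 55 higher and 68 lower. Replicates were close, with a median SD of 0.071 among NTC and 0.069 among DKO libraries. In 4174 of the 4247 called genes no DKO library lay within the range of the NTC libraries. A call and such a separation rest on the same values, so the separation adds no support to a call. Its share over all tested genes is not given here. The median difference of all tested genes was −0.0055. When every library was scaled to the same total of listed genes, this median moved to 0.039 and the split changed to 2652 higher and 1722 lower, so genes with small differences depend on the scale.

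**Figure D1:**
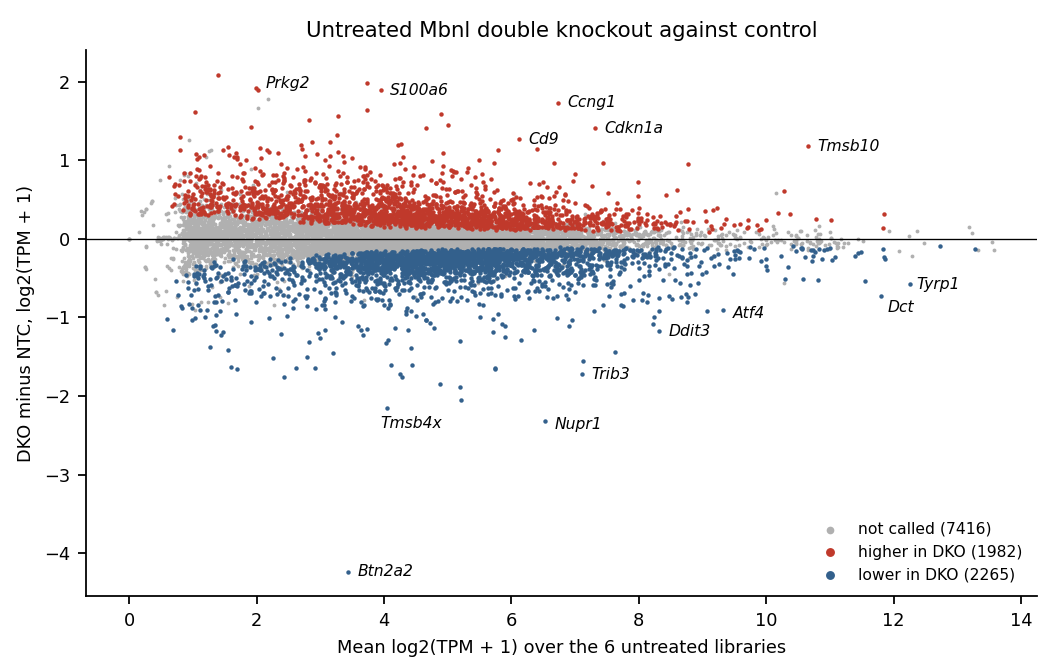
Each point is 1 of the 11663 tested genes, with its mean log2(TPM + 1) over the 6 untreated libraries on the x axis and DKO minus NTC on the y axis. Red points are the 1982 genes called higher in DKO and blue points the 2265 called lower, and *Btn2a2* lies lowest at −4.24.

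Both targeted genes still gave RNA in DKO cells. *Mbnl1* measured 56.8, 57.00 and 55.6 TPM in the NTC libraries against 41.3, 41.1 and 44.04 TPM in the DKO libraries. The difference was −0.41 (SE 0.0489, adjusted p = 2.54e-05). *Mbnl2* differed by −0.199 (adjusted p = 0.00937) and the untargeted *Mbnl3* by 0.41 (adjusted p = 0.00765). Small insertions and deletions made by Cas9 need not remove a transcript, so these RNA levels do not measure the protein. SR proteins and hnRNPs, which also act in splicing, gave 11 higher and 6 lower of 36 tested, with a median of 0.022. Of 20 tested on a separate list of splicing regulators, 1 rose and 2 fell, with a median of 0.040. The cytoplasmic polyadenylation factors *Cpeb2* (−0.88) and *Cpeb1* (−0.54) were the members that fell, and *Rbm38*, itself a target of p53, was the one that rose (0.54). Among 35 tested genes whose splicing MBNL proteins are known to control, 7 rose and 6 fell, or 12 and 3 with the same total. As fitted, these counts are close to the shares over all tested genes, 17% higher and 19.4% lower. *Bin1*, an endocytic adaptor (0.596), and *Map4k4*, a kinase (0.37), were higher, and *Vldlr*, a lipoprotein receptor (−0.79), was lower.

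The most extensive decline was in genes of the integrated stress response and of amino acid supply. In this response, kinases that sense amino acid shortage, unfolded proteins or other stress phosphorylate eIF2α, which lowers general translation and raises translation of the transcription factor ATF4. ATF4 then switches on genes for amino acid synthesis and uptake, tRNA charging and the recovery or death of the cell. Of 32 tested genes on the list, 28 fell and 2 rose, with a median of −0.78. Of 21 tRNA synthetases tested, all cytosolic but the mitochondrial *Fars2*, 14 fell and 1 rose, with a median of −0.50.

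*Atf4* itself was lower. *Atf4* measured 838, 831 and 834 TPM in the NTC libraries against 449, 448 and 440.2 TPM in the DKO libraries, a difference of −0.903 (SE 0.0314, adjusted p = 5.22e-10). The replicates lay close together and the groups were far apart. *Nupr1* measured 183, 136 and 141 TPM in the NTC libraries against 25.2, 33.7 and 30.9 TPM in the DKO libraries, and the difference of −2.32 (SE 0.12, adjusted p = 2.19e-08) made this stress-induced chromatin protein the gene with the largest fall after *Btn2a2* among those of at least 5 TPM. *Trib3* measured 228, 194 and 209 TPM in the NTC libraries against 64.8, 63.96 and 59.9 TPM in the DKO libraries, a difference of −1.72 (SE 0.0651, adjusted p = 1.16e-09) in a pseudokinase that restrains ATF4. *Ddit3*, which encodes the pro-apoptotic factor CHOP, measured 521, 397 and 408 TPM (NTC) against 189, 197 and 193 TPM (DKO), a difference of −1.18 (SE 0.0766, adjusted p = 1.46e-07). In *Nupr1*, *Trib3* and *Ddit3*, NTC replicate 1 was the highest library, and the groups did not overlap. The same NTC library stood out further for *Ppp1r15a*, the phosphatase subunit that reverses eIF2α phosphorylation. *Ppp1r15a* measured 107, 63.96 and 69.5 TPM in the NTC libraries against 23.96, 23.6 and 25.2 TPM in the DKO libraries, so that NTC replicate 1 lay well above the other 2 while all 3 DKO libraries agreed closely (difference −1.65, adjusted p = 1.19e-06).

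Other factors of the response were lower as well, namely *Atf5* (−1.66), *Cebpb* (−1.51), *Atf3* (−1.39) and *Cebpg* (−0.71). Amino acid metabolism followed. Differences were −0.998 for the asparagine synthetase *Asns*, −1.304 for *Cth*, which makes cysteine, −1.29 for the proline enzyme *Pycr1*, −1.03 for *Psph* and −0.73 for *Phgdh* of serine synthesis, and −0.92 for *Mthfd2* of mitochondrial one-carbon metabolism. The transporters *Slc7a11* (−1.600), which imports cystine, *Slc7a5* (−0.85) and *Slc3a2* (−0.78) fell too. *Slc7a11* measured 29.95, 20.9 and 24.5 TPM in the NTC libraries against 7.09, 8.91 and 6.73 TPM in the DKO libraries. Those that rose were *Shmt1* (0.303) and *Mthfd1* (0.12), both enzymes of the cytosolic one-carbon pathway. The call of *Mthfd1* was lost when any library but NTC replicate 2 was left out (0.10 to 0.14, adjusted p 0.059 to 0.163). *Fgf21* (−0.44) and *Cbs* (0.31) did not pass the test. Seryl-tRNA synthetase showed the largest fall of its group. *Sars* measured 764, 664 and 676 TPM in the NTC libraries against 359, 384 and 365 TPM in the DKO libraries, a difference of −0.92 (SE 0.0491, adjusted p = 2.77e-08). The alanyl (−0.75), glutamyl-prolyl (−0.69) and glycyl (−0.56) enzymes were also lower, the lysyl enzyme *Kars* was at 0.06 and not called, and the glutaminyl enzyme *Qars* was higher (0.15).

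ATF4 binds with C/EBP partners to a composite element whose core can be written TGATGNAA. This core was searched on both strands in RefSeq promoter windows of GRCm38.p6, from 250 bases before to 50 bases after each annotated start. It was found in 3.97% of 32851 windows, and in at least 1 window of 234 of the 8481 tested genes that had any (2.76%). Among the members of the stress response list that fell and had a window, 9 of 25 held it (36%). So did 5 of the 8 tRNA synthetases that fell and had a window. Of the members with a window that did not fall, 1 of 4 on the first list and 0 of 5 on the second held it. A match shows only that the letters are present and not that ATF4 was bound, and these genes were put on the list for a known link to ATF4. The windows of 5 members that fell are printed 5′ to 3′ on the strand of the gene, with the core or its reverse complement in capitals, to show where it lies.
Nupr1 (chr7:126625421-126625720, minus strand): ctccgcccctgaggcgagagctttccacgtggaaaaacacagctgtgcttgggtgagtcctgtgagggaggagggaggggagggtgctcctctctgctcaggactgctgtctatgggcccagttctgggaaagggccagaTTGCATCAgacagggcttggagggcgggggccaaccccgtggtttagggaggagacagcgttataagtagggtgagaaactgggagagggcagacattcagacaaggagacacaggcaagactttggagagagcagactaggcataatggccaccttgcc
Trib3 (chr2:152344011-152344310, minus strand): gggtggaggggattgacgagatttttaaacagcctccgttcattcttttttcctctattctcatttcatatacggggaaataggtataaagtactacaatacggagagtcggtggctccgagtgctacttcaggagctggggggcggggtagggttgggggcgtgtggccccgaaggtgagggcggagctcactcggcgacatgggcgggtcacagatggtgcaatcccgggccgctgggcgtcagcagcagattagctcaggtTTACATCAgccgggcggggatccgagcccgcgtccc
Chac1 (chr2:119350992-119351291, plus strand): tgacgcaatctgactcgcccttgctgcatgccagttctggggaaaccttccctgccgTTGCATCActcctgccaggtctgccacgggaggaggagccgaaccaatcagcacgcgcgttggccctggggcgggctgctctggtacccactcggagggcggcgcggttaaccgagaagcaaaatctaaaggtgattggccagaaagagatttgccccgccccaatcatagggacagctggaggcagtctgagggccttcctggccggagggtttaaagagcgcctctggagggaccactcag
Asns (chr6:7693160-7693459, minus strand): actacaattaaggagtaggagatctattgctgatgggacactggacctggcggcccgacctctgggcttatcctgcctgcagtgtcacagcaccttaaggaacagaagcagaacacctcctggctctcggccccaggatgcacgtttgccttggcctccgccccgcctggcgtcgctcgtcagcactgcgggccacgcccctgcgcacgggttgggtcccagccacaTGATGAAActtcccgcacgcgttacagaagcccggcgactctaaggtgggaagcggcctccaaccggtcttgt
Aars (chr8:111033592-111033891, plus strand): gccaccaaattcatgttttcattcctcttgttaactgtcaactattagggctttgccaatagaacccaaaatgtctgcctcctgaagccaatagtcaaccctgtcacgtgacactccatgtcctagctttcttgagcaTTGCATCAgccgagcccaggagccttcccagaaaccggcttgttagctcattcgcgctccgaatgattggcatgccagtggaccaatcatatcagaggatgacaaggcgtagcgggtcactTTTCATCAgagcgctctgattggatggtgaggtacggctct
In *Nupr1*, *Chac1* and *Asns* the core lay before the start, in *Trib3* after it, and *Aars* held it 2 times. *Ddit3*, *Atf4* and *Sars* fell without the core in their windows.

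Genes of the unfolded protein response did not follow. This neighbouring response acts through the endoplasmic reticulum sensors PERK, IRE1 and ATF6 and raises chaperones of that compartment. Of 29 tested, 15 rose and 5 fell, with a median of 0.18. *Hspa5* measured 430.3, 480.4 and 469 TPM in the NTC libraries against 597, 568 and 598 TPM in the DKO libraries, a difference of 0.35 (SE 0.051, adjusted p = 1.33e-04) in the main chaperone of the compartment, and the groups did not overlap. *Manf* (0.46), *Sdf2l1* (0.497), *Edem1* (0.45) and the PERK gene *Eif2ak3* (0.52) were also higher. The members that fell included the sensors *Atf6* (−0.79) and *Ern1* (−0.39) and *Herpud1* (−0.57) of protein degradation. Heat shock proteins and chaperonins, which help proteins fold, rose in 10 of 28 and fell in 2 of 28, with *Hspb8* (1.05) and *Hsph1* (0.67) highest and the mitochondrial *Hspa9* lowest (−0.71). Among 31 translation factors, 15 fell and 3 rose, and with the same total 12 fell and 8 rose. Of these, 7 lay in the stretches of chromosomes 2, 6 and 15 described further on, and outside them 9 of 24 fell, with a median of −0.052 against −0.104 for all 31. Without NTC replicate 2, 5 rose. *Eif2s2*, a subunit of eIF2, fell by 0.77 and *Eif4ebp1*, an inhibitor of cap-dependent initiation, by 0.74 on the log2 scale.

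**Figure D2:**
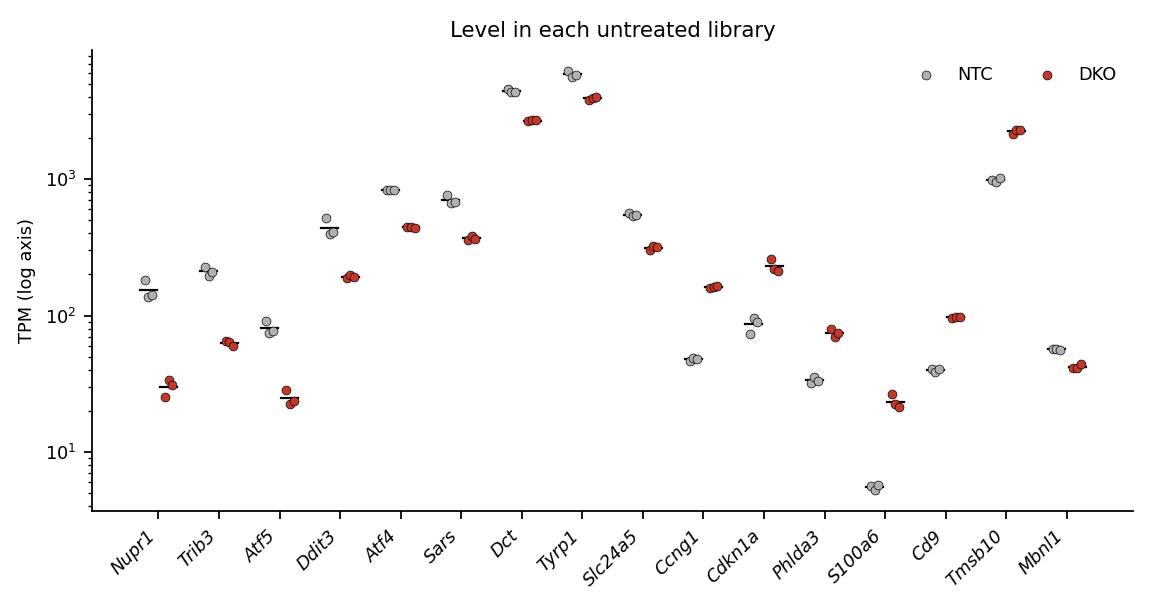
TPM on a log axis for 16 genes, with 1 point for each untreated library and a bar at the mean of 3, grey for NTC and red for DKO. For each gene drawn, the 3 DKO points lie wholly above or wholly below the 3 NTC points.

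Targets of p53 rose. p53 is stabilized by DNA damage and other stress and switches on genes that halt the cell cycle, repair DNA or cause apoptosis. Of 28 tested genes on the list, 19 rose and 5 fell (17 and 3 without DKO replicate 2), with a median of 0.46, the highest of the lists with more than 10 tested genes. *Ccng1* measured 46.7, 48.7 and 48.3 TPM in the NTC libraries against 159, 163 and 164 TPM in the DKO libraries, a difference of 1.73 (SE 0.0528, adjusted p = 1.49e-10) in cyclin G1, which regulates p53 itself. Replicates were close in both groups and the groups were far apart. *Cdkn1a* measured 72.8, 95.5 and 89.8 TPM in the NTC libraries against 260.3, 218 and 211 TPM in the DKO libraries, a difference of 1.41 (SE 0.11, adjusted p = 6.47e-07) in the cell cycle inhibitor p21. *Trp53inp1* measured 17.2, 16.3 and 15.3 TPM in the NTC libraries against 43.1, 46.9 and 48.2 TPM in the DKO libraries, and *Phlda3*, an inhibitor of AKT signaling, measured 32.3, 35.2 and 33.3 TPM (NTC) against 79.96, 69.5 and 74.4 TPM (DKO). Their differences were 1.45 (adjusted p = 8.53e-09) and 1.13 (adjusted p = 2.54e-07). The receptor *Tnfrsf10b* (1.06), *Btg2* (1.05), *Zmat3* (0.85), *Aen* (0.79), *Mdm2* (0.38) and the apoptotic *Bax* (0.33) were also higher.

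*Bbc3*, which encodes the pro-apoptotic PUMA, measured 4.19, 4.44 and 4.29 TPM (NTC) against 9.50, 5.56 and 6.73 TPM (DKO) (0.61, adjusted p = 0.0424). DKO replicate 1 was the highest, and without it the difference was 0.42 (adjusted p = 0.175). The call was lost too without any other library but DKO replicate 2 (0.595 to 0.65, adjusted p 0.074 to 0.1). The p53 gene, *Trp53*, was slightly higher (0.13), a call that was lost when any library but NTC replicate 1 was left out (0.11 to 0.14, adjusted p 0.051 to 0.091). The members that fell were *Ddb2* (−0.73) of DNA repair, *Plk3* (−0.51), *Gadd45a* (−0.38), *Sesn2* (−0.32) and *Ccnk* (−0.17). *Gadd45a* and *Sesn2* are also targets of ATF4, and *Ddb2* lies in the stretch of chromosome 2 described further on. Whether either bears on their fall was not tested. The call of *Gadd45a* was lost without NTC replicate 1 (−0.23, adjusted p = 0.128), DKO replicate 2 (−0.31) or DKO replicate 3 (−0.399), and that of *Plk3* without NTC replicate 3 (−0.44) or DKO replicate 2 (−0.38).

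Cell cycle genes showed no single direction. Of 51 tested genes of DNA replication and S phase, 24 rose and 3 fell, with a median of 0.13. *Ccne1* measured 24.1, 28.8 and 28.1 TPM in the NTC libraries against 50.98, 48.8 and 53.7 TPM in the DKO libraries, a difference of 0.901 (SE 0.0674, adjusted p = 5.05e-07) in cyclin E1, which drives entry into S phase, and all DKO libraries lay far above the NTC range. *Orc1* (0.61) of the origin recognition complex and *Rrm2* (0.28) of nucleotide synthesis were higher, and *Pcna* (−0.101) did not pass the test. *Pcna* was called lower without NTC replicate 1 (−0.17, adjusted p = 0.0142) and higher with the median of its neighbours on chromosome 2 removed (0.17, adjusted p = 0.0371), an alternative described further on. Of 42 mitosis genes, 10 rose and 12 fell, with the same total 13 rose and 8 fell, and without NTC replicate 1 the counts were 6 and 10. *Cdc20* (0.46), an activator of the anaphase-promoting complex, was higher and *Spc24* (−0.63) and *Ndc80* (−0.36) of the kinetochore were lower. In G1, *Ccnd1* (0.59) was higher while *Cdk4* (−0.22) and *Cdk2* (−0.45) were lower.

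Many genes of the pigment cell were lower. In melanocytes, MITF and SOX10 drive the enzymes and structural proteins that make melanin in melanosomes. Of 28 tested genes of melanin synthesis and the melanosome, 20 fell and 2 rose, with a median of −0.28. *Dct* measured 4594, 4366 and 4379 TPM in the NTC libraries against 2648, 2705 and 2711 TPM in the DKO libraries, a difference of −0.73 (SE 0.0324, adjusted p = 5.71e-09) in dopachrome tautomerase. *Tyrp1* measured 6196, 5624 and 5821 TPM in the NTC libraries against 3835, 3947 and 4034 TPM in the DKO libraries. *Pmel*, which forms the fibrils of the melanosome, measured 3656, 3554 and 3454 TPM (NTC) against 2444, 2434 and 2469 TPM (DKO). These were among the most abundant RNAs of the cells, and the differences of −0.58 and −0.54 (adjusted p = 6.30e-07 and 7.13e-07) were with *Dct* the largest losses in TPM outside the genes with the largest log2 differences. The cation channel *Trpm1* (−1.01), the transporters *Oca2* (−0.85) and *Slc24a5* (−0.802), and tyrosinase, *Tyr* (−0.53), were lower too.

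Factors and receptors of the melanocyte lineage were more mixed, with 8 lower and 4 higher of 17 tested and a median of −0.13. With the same total, 5 were lower and 4 higher. *Mitf* was lower by 0.42 on the log2 scale (adjusted p = 1.71e-05) and *Sox10* by 0.35 (adjusted p = 0.00242). *Kit* measured 3.35, 3.94 and 3.47 TPM in the NTC libraries against 0.458, 0.574 and 0.425 TPM in the DKO libraries, so the receptor for stem cell factor was at low level in NTC and lower still in DKO libraries (−1.63, adjusted p = 1.29e-07). *Met*, the receptor for hepatocyte growth factor, also fell (−0.72). Against this, *Mc1r*, the melanocortin receptor, was at 0.22 (adjusted p = 0.0373) and the receptor *Erbb3* at 0.82 (adjusted p = 6.98e-05), both higher. The call of *Mc1r* was lost without NTC replicates 1 or 3 or DKO replicates 1 or 3 (0.16 to 0.24, adjusted p 0.051 to 0.153). *Sox9* fell (−1.06) and *Axl* rose (0.696), genes that in melanoma mark less differentiated states, and of 12 tested genes of that list 3 rose and 2 fell. Lysosomal genes, whose products share their origin with those of melanosomes, fell in 21 of 46 and rose in 7 of 46, with *Ctsa* (−0.59) lowest.

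**Figure D3:**
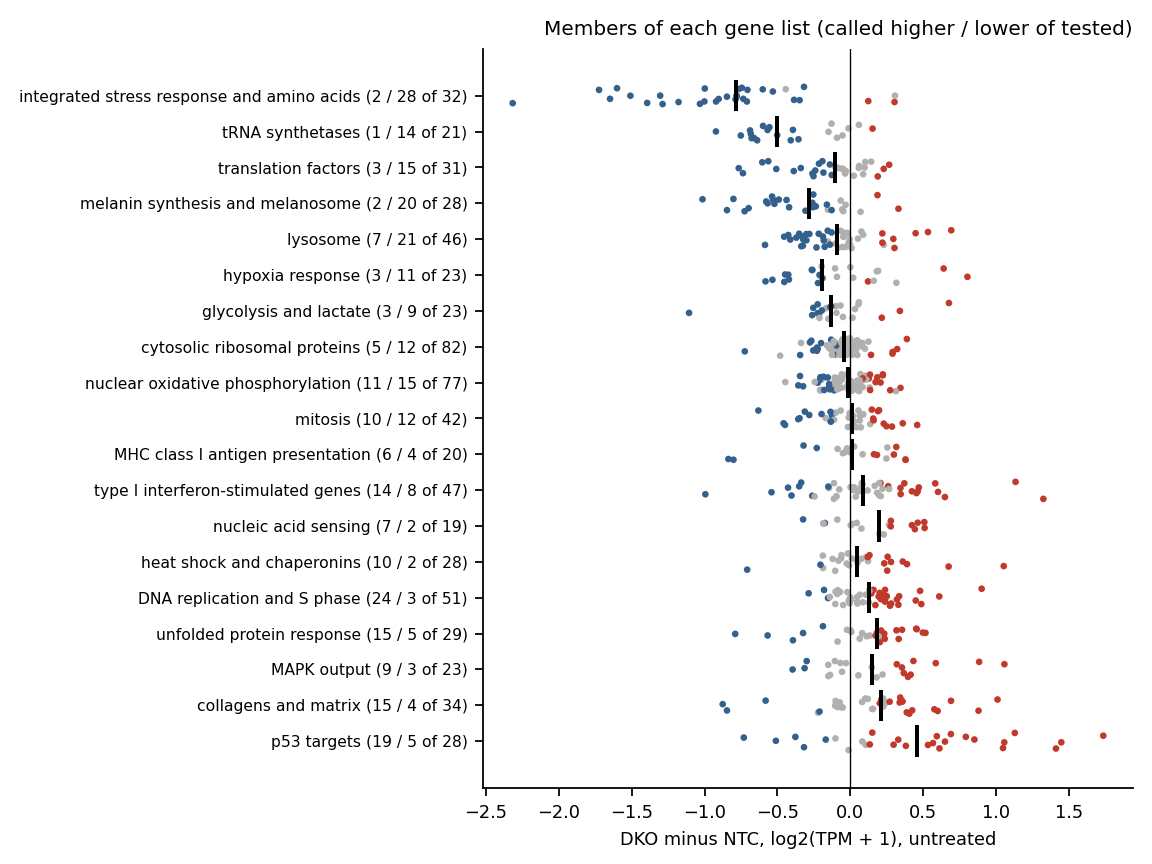
Each point is 1 tested gene of the list named on the left, placed by DKO minus NTC, in red where called higher, blue where called lower and grey otherwise. Black bars give the list medians, which run from −0.78 for the integrated stress response to 0.46 for p53 targets.

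Antigen presentation and interferon genes were mixed before any IFNγ was given. MHC class I molecules carry peptides to the cell surface with β2-microglobulin, encoded by *B2m*. Against 17% higher and 19.4% lower among all tested genes, 6 of 20 tested genes of this pathway rose and 4 fell, with a median of 0.013. The other 10 were not called. The count that rose was 3 without NTC replicate 3 and 2 without DKO replicate 3. Those that fell were *H2-K1*, *H2-D1*, *H2-Q4* and *B2m*. *H2-K1* measured 60.6, 56.9 and 60.9 TPM in the NTC libraries against 34.6, 33.04 and 31.04 TPM in the DKO libraries, a difference of −0.84 (SE 0.0627, adjusted p = 5.11e-07). *H2-D1* (−0.32), *H2-Q4* (−0.802) and *B2m* (−0.23) were lower, and no DKO library reached the NTC range for any of these genes. *B2m* lies in the stretch of chromosome 2 described further on. With the median of its neighbours removed, an alternative described there, *B2m* was at 0.056 and not called (adjusted p = 0.401). The H2 genes resemble each other, so reads may be split between them with error. Those that rose served peptide supply and loading, among them *Tapbp* (0.38), *Psmb10* (0.38), *Calr* (0.18) and, near the lower limit of the filter, *Tap1* (0.299). The call of *Tap1* was lost when any library but DKO replicate 2 was left out (0.23 to 0.32, adjusted p 0.053 to 0.134), and that of *Calr* without NTC replicate 1 (0.11) or DKO replicate 3 (0.17).

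Of 47 tested genes that type I interferon induces, 14 rose and 8 fell, with a median of 0.084. The count that fell was 4 without NTC replicate 1, DKO replicate 1 or DKO replicate 2, and 5 without NTC replicate 2 or with the same total. *Cxcl10* measured 5.77, 4.81 and 3.08 TPM in the NTC libraries against 11.8, 15.3 and 11.1 TPM in the DKO libraries, a difference of 1.32 (SE 0.21, adjusted p = 2.65e-04) in a chemokine for T cells. The NTC libraries varied among themselves, and all DKO libraries were higher. *Ifit1* rose from between 0.603 and 0.912 TPM to between 2.72 and 2.89 TPM (1.13), and *Ifit3* by 0.65, while *Oas1a* (−0.99) was lower. Neighbouring *Oas1* and *Ifitm* copies may share reads. Of 22 tested genes of interferon receptors and JAK-STAT signaling, 7 rose and 1 fell, and without NTC replicate 1 only 4 rose. The receptor chain *Ifngr2* (0.604) and the factor *Irf1* (0.53) were higher and *Ifnar2* (−0.34) was lower. Sensors of foreign or displaced nucleic acid rose in 7 of 19 and fell in 2 of 19, with *Tlr3* (0.51), *Ticam1* (0.51) and *Ddx58* (0.46) higher. Only 1 of them fell with the same total or without any untreated library but NTC replicate 2.

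The largest single difference was in *Btn2a2*, a butyrophilin related to B7 proteins. *Btn2a2* measured 20.1, 18.6 and 20.2 TPM in the NTC libraries against 0, 0 and 0.316 TPM in the DKO libraries, where a value of 0 says only that the gene is listed at 0. The difference of −4.24 (SE 0.11, adjusted p = 6.06e-11) rests on the added pseudocount and no fold is given. Among other genes lower in DKO, *Tmsb4x* measured 23.7, 26.6 and 27.4 TPM (NTC) against 5.83, 4.31 and 5.15 TPM (DKO) (−2.15, adjusted p = 4.31e-08), while its paralog *Tmsb10* went the other way. *Tmsb10* measured 990.3, 959 and 1018 TPM in the NTC libraries against 2127, 2301 and 2291 TPM in the DKO libraries, a difference of 1.18 (SE 0.0447, adjusted p = 1.16e-09). Both encode thymosins that bind actin monomers. The transcriptional coregulator *Cited1* (−2.05), the methyltransferase *Nnmt* (−1.88), the axonal transport adaptor *Fez1* (−1.85), the heparan sulfate enzyme *Hs3st1* (−1.76) and *Gjb2*, which encodes connexin 26 (−1.56), were lower. *Cited1* measured 56.4, 59.9 and 59.04 TPM in the NTC libraries against 12.95, 13.5 and 13.4 TPM in the DKO libraries. *Gjb2* measured 209, 211 and 199 TPM in the NTC libraries against 68.2, 68.2 and 71.9 TPM in the DKO libraries. *Mgst1* (−1.72) and *Gsta4* (−1.45), enzymes that conjugate glutathione, were lower as well, as were *Cml3* (−1.75) and *Nat8* (−1.52), a related pair of acetyltransferase genes in 1 cluster that may share reads.

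Among the genes highest in DKO, *Gja1*, which encodes connexin 43, changed in the direction opposite to *Gjb2*. *Gja1* measured 5.23, 5.07 and 6.16 TPM in the NTC libraries against 18.5, 19.3 and 19.8 TPM in the DKO libraries (1.64, adjusted p = 8.53e-09). *S100a6* measured 5.64, 5.22 and 5.74 TPM in the NTC libraries against 26.6, 22.3 and 21.2 TPM in the DKO libraries, and *S100a4* measured 4.65, 5.99 and 4.81 TPM (NTC) against 11.6, 13.8 and 11.1 TPM (DKO), with differences of 1.89 (adjusted p = 3.14e-07) and 1.102 (adjusted p = 1.21e-05) in these calcium-binding proteins. The groups were apart for both, and the list of S100 proteins and annexins as a whole had 6 risen and 5 fallen of 15. *Cd9* measured 40.4, 38.3 and 40.6 TPM in the NTC libraries against 96.7, 97.4 and 97.6 TPM in the DKO libraries, a difference of 1.27 in this tetraspanin. *Park2*, the ubiquitin ligase parkin, spread more. *Park2* measured 6.89, 2.78 and 3.21 TPM in the NTC libraries against 10.97, 20.2 and 29.4 TPM in the DKO libraries (1.98, SE 0.40, adjusted p = 0.00166). All DKO libraries were above the NTC libraries, but they differed widely among themselves. The cGMP-dependent kinase *Prkg2* (1.93), the phosphatase *Ptp4a3* (1.59), the scaffold *Akap12* (1.23), the metalloprotease *Adam12* (1.19) and *Ddit4l* (1.51), an inhibitor of mTOR signaling, were also higher. *Hist1h4i* (1.41) was higher too, one of many near-identical histone H4 genes. Outside these, the genes that gained most TPM were *mt-Nd1*, *Dbi*, *Rpl32*, *Ptma* and *Hspa8*. *Dbi*, an acyl-CoA binding protein, had the clearest of these gains. *Dbi* measured 974, 966 and 997 TPM in the NTC libraries against 1415, 1521 and 1544 TPM in the DKO libraries (0.61, adjusted p = 6.80e-07). For *mt-Nd1* (0.31, adjusted p = 0.0209) the call was lost without NTC replicates 2 or 3 or DKO replicates 2 or 3 (0.25 to 0.298, adjusted p 0.061 to 0.087).

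Genes of the matrix rose in 15 of 34 and fell in 4 of 34, with periostin, *Postn* (1.01), the urokinase receptor *Plaur* (0.69) and *Timp2* (0.58) higher and *Timp3* (−0.88) and *Col5a3* (−0.85) lower. Genes that report signaling through MAP kinases rose in 9 of 23, led by *Etv5* (1.06) and *Dusp6* (0.88), and fell in 3 of 23. *Etv5* measured 3.30, 3.54 and 3.36 TPM in the NTC libraries against 7.87, 8.47 and 8.10 TPM in the DKO libraries. Genes of hypoxia fell in 11 of 23 and rose in 3 of 23, or in 6 with the same total and 5 without NTC replicate 3. Among these *Vegfa* (−0.45) and *Ndrg1* (−0.53) were lower and *Ankrd37* (0.803) and *Adm* (0.64) higher. In glycolysis, 9 of 23 fell and 3 rose, and with the same total 5 fell and 3 rose. *Slc16a3* measured 142, 176 and 172 TPM in the NTC libraries against 79.2, 69.2 and 77.2 TPM in the DKO libraries, a difference of −1.11 (SE 0.0895, adjusted p = 1.09e-06) in the lactate exporter MCT4, and *Pkm* was at −0.25. *Ldhb* rose (0.68). In fatty acid metabolism the counts depended on the scale and on single libraries, being 18 higher and 2 lower with the same total, 9 and 4 without NTC replicate 1 and 10 and 3 without NTC replicate 3 or DKO replicate 3. As fitted, 14 of 32 rose and 6 fell, with *Cpt1c* (0.89) and the elongase *Elovl6* (0.72) higher. Cytosolic ribosomal proteins were mostly not called, with 5 higher and 12 lower of 82 (8 and 9 with the same total), and *Rpl22l1*, a paralog of *Rpl22*, was the lowest (−0.72). Nuclear genes of oxidative phosphorylation gave 11 higher and 15 lower of 77, a split that turned to 18 and 9 with the same total. Without NTC replicate 1 it was 7 and 9, without NTC replicate 2 it was 6 and 12, and without DKO replicate 3 it was 7 and 14.

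The differences were not spread evenly over the genome. The tested genes were ordered by their starts in GENCODE M21, on GRCm38, and counted in bins of 10 Mb. Of 208 bins with at least 20 tested genes, 10 had a median at or below −0.2, and all 10 were those of chromosome 2 from 90 Mb to its end. Their medians lay between −0.29 and −0.22. In this stretch, 333 of 570 genes fell (58.4%, against 19.4% of all tested genes) and 8 rose (1.4%, against 17%), with a median of −0.27, which is 17.1% lower on the TPM + 1 scale. In all, 85.6% of the 570 genes were below 0. On the same chromosome before 80 Mb, 40 of 372 genes fell and 77 rose, with a median of 0.032. By library, the median deviation of the 570 genes from their own means lay between 0.13 and 0.14 in the NTC libraries and between −0.14 and −0.13 in the DKO libraries. The stretch held 14.7% of all genes called lower.

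Chromosome 6 went the other way. The 4 bins with a median of at least 0.2 were all on it, and 3 of these lay in the stretch from 110 to 150 Mb, where 98 of 193 genes rose (50.8%) and 9 fell, with a median of 0.20. On chromosome 15, 167 of 441 genes fell (37.9%) and 45 rose, with a median of −0.12 that reached −0.18 before 70 Mb. Its bin from 100 to 110 Mb went the other way, with 16 of 49 genes higher and 3 lower. Outside these stretches, with all of chromosome 15 left out, 1827 of 10359 genes rose and 1747 fell, but some bins there were not balanced. On chromosome 13 from 60 to 70 Mb, 19 of 51 genes fell and 0 rose, with a median of −0.18 (−0.26 with IFNγ). On chromosome 2 from 80 to 90 Mb, 13 of 25 fell and 3 rose, with a median of −0.16. On chromosome 6 from 70 to 80 Mb, 19 of 33 rose and 1 fell, with a median of 0.25. DNA was not measured here, and whether copy number differed between the genotypes was not tested. The boundaries were read from the same data, so no test was made.

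**Figure D4:**
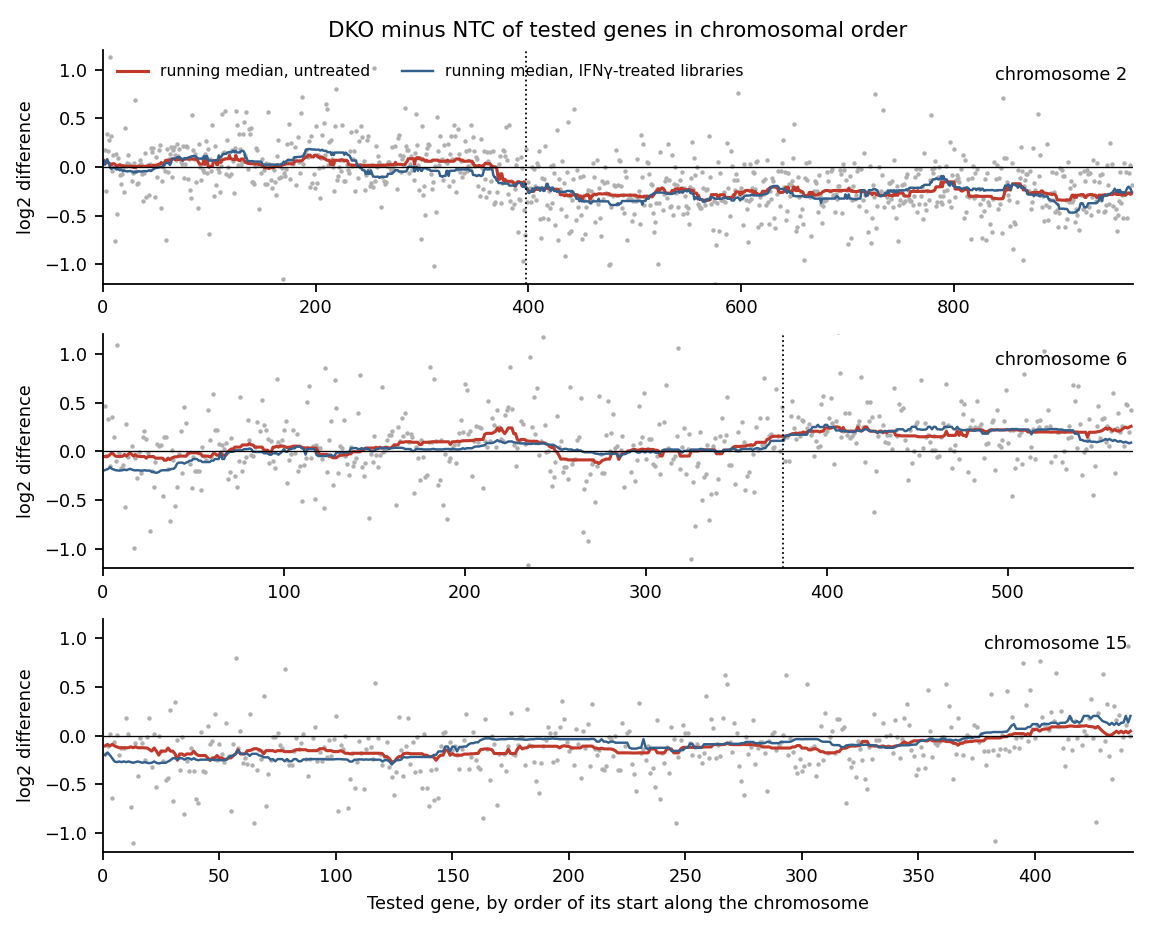
DKO minus NTC, in log2(TPM + 1), of tested genes in their order along chromosomes 2, 6 and 15, as grey points, with points beyond 1.2 in size not drawn. Lines are running medians over 41 genes in the untreated (red) and the IFNγ-treated (blue) libraries, and dotted lines mark the first gene from 90 Mb on chromosome 2 and from 110 Mb on chromosome 6, where both medians have left 0.

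Several genes described above lie in the stretch of chromosome 2, namely *B2m*, *Slc24a5*, *Ddb2*, *Trib3*, *Chac1*, *Cebpb*, *Ctsa* and *Eif2s2*. *Atf4* lies on chromosome 15, in the bin from 80 to 90 Mb, where 37 of 89 genes fell and 8 rose. Of the stress response list, 5 tested genes lay in the stretches of chromosomes 2 and 6 or on chromosome 15. Outside these, 23 of 27 fell and 2 rose, with a median of −0.78. An alternative added after the data had been seen took the running median of 41 neighbouring genes from each library, and under it *B2m* moved from −0.23 to 0.056 (adjusted p = 0.401). The differences of *Trib3*, *Chac1*, *Cebpb*, *Slc24a5*, *Ddb2*, *Ctsa* and *Eif2s2* stayed below 0 and past the threshold. Some lists moved little under it, with 28 lower and 1 higher in the integrated stress response, 18 higher and 4 lower among p53 targets and 21 lower and 2 higher among pigment genes. Others moved more, with the genes called lower going from 15 to 8 in nuclear oxidative phosphorylation, from 12 to 7 in mitosis and from 15 to 11 among translation factors. The difference changed sign in 29 named genes, 10 of them called before. Of these 10, *Srsf6*, *Raly*, *Mavs*, *Nop56*, *Cstf1* and *B2m* were on chromosome 2, *Rpl32*, *Kdm3a* and *Atg7* on chromosome 6 and *Mrpl13* on chromosome 15.

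The 6 libraries treated with IFNγ give the same contrast in separate samples of the same cells. There, 5053 genes (43.3% of those tested) were called between DKO and NTC. Of the 4247 genes called without IFNγ, 4101 (96.6%) had the same sign with it, and 3213 were called with that sign, which is 75.7% of the untreated and 63.6% of the treated calls. Of the 123 genes with a difference of at least 1, 115 were called with the same sign. *Cebpb* was among the other 8, with −1.51 without and −0.42 with IFNγ (adjusted p = 0.0682). Differences with IFNγ were −2.33 for *Nupr1*, −0.87 for *Atf4*, 1.61 for *Ccng1*, 1.72 for *Cdkn1a*, −0.700 for *Dct* and −4.13 for *Btn2a2*. The median of the stretch of chromosome 2 was −0.28 with IFNγ and that of chromosome 6 was 0.21. On chromosome 15 the median before 70 Mb was −0.18 without and −0.25 with IFNγ, and from 70 Mb on it was −0.099 without and −0.029 with IFNγ. Because the libraries come from the same cells of each genotype, they repeat the measurement and not the editing. Both contrasts also used 1 shared estimate of each gene's spread, so calls made in both are not independent. The share with the same sign among genes not called is not given here.

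**Figure D5:**
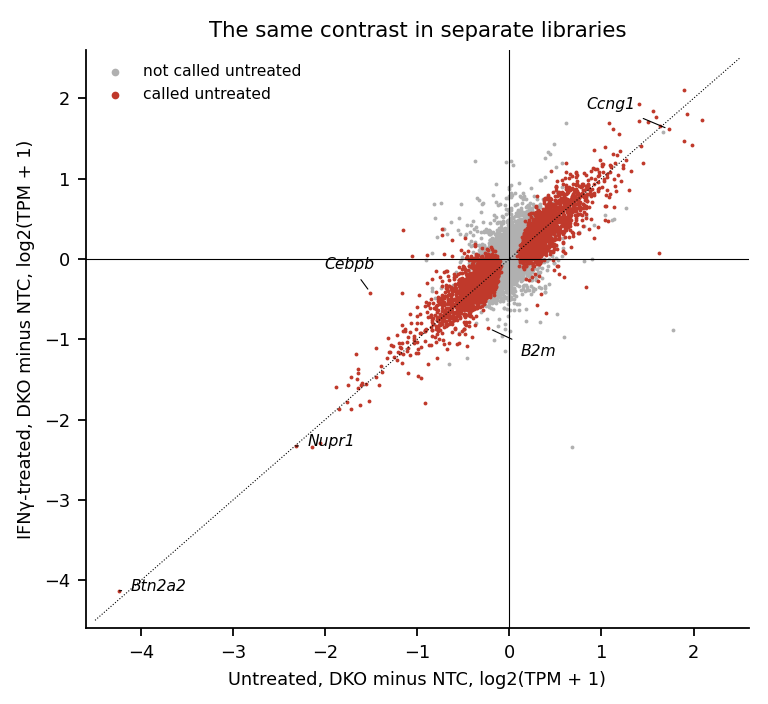
DKO minus NTC in log2(TPM + 1) without IFNγ (x axis) and with IFNγ (y axis) for the 11663 tested genes, which share no library between the axes. Red points are the 4247 genes called without IFNγ, 4101 of which have the same sign on both axes, and the dotted line marks equal differences.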

How the data were processed

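Per the labels and the study's methods, the libraries were poly(A)-selected and unstranded, and the authors deposited 1 table of TPM values, made with RSEM 1.2.4 and Bowtie, with TopHat used for reads that did not align, on mm10. TPM carry no depth, so precision was taken from the replicates, and RSEM estimates can split reads of near-identical genes with error. After a filter that kept 11663 genes (1 TPM or more in 3 or more libraries), log2(TPM + 1) was fitted with limma 3.58.1 (R 4.3.3), with 1 mean per genotype and treatment over 12 libraries, with the prior variance modelled on mean level. P-values are moderated, two-sided and Benjamini-Hochberg adjusted. The fit was tested on simulated data. Named genes are *Mbnl1* to *Mbnl3*, up to 20 genes per direction with the largest log2 difference among called genes whose groups do not overlap and whose higher mean is at least 5 TPM, up to 5 more per direction by TPM difference, and for each list up to 4 called members per direction and the 4 most abundant. Further members were chosen after their values were seen, namely *Aen*, *Asns*, *Atf3*, *Btg2*, *Cbs*, *Ccnk*, *Cebpg*, *Chac1*, *Cth*, *Fars2*, *Fgf21*, *Kars*, *Mdm2*, *Psph*, *Pycr1*, *Rpl22*, *Slc3a2*, *Slc7a5*, *Tnfrsf10b* and *Zmat3*. The members and lists were chosen with earlier results of these data known. Alternatives were a pseudocount of 0.1, other filters, only the 6 libraries, a replicate block, each library left out, 2 scalings, GC and length correction, and no trend in the prior variance. Coordinates are from GENCODE M21, which held 22251 of the 23022 listed genes. Figures used Python 3.11.15 and matplotlib 3.10.9.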

Additional observations from a re-analysis of the deposited data

Results flagged for a closer look

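*B2m* differed between DKO and NTC libraries by a different amount with IFNγ than without it. The difference was −0.23 without IFNγ and −0.86 with it, and the test of the change itself gave −0.63 (SE 0.0821, limma adjusted p = 0.0256). It was 1 of 4 genes that passed this test, while 1340 of 11663 had an unadjusted p under 0.05. No other gene named by the rule passed it.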

How the results depend on the processing

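The counts of called genes, of those higher and of those lower stayed within 1.5 times their values of 4247, 1982 and 2265 under every alternative tried, and the count with IFNγ stayed within 1.5 times 5053. The count of genes with a difference of at least 1 went from 123 to 223 with a pseudocount of 0.1, which enlarges differences of low genes. Leaving out 1 untreated library at a time gave 3430 to 3697 called genes, 1592 to 1740 higher, 1832 to 1957 lower and 116 to 139 with a difference of at least 1. The neighbourhood correction, chosen after seeing the data, called 3936 genes, 3335 of them shared with the values reported, 4 with the opposite sign. Under it 29 named genes changed sign, and the 10 of them called before went to −0.086 for *Rpl32*, 0.017 for *Srsf6*, 0.066 for *Raly*, 0.056 for *B2m*, 0.099 for *Mavs*, 0.148 for *Nop56*, 0.011 for *Mrpl13*, −0.101 for *Kdm3a*, −0.043 for *Atg7* and 0.0060 for *Cstf1*, while *Pcna* (0.17), *Cd44* (0.23) and *Pdia3* (0.18) were called only with the new sign. No other alternative in the untreated contrast reversed a called named gene, and of 448 called named genes 112 lost the call under at least 1 alternative. The *B2m* change with IFNγ lost its call with no trend in the prior variance (−0.63, limma adjusted p = 0.0666) and without any untreated library but DKO replicate 1, or IFNγ-treated NTC replicates 2 or 3 or DKO replicate 1 (−0.68 to −0.56 over all 12 libraries left out in turn, limma adjusted p 0.019 to 0.102), and the cause was not tested. Same-numbered untreated NTC and DKO libraries did not deviate together (r = −0.18, −0.12 and 0.022 across genes), so the numbers were not taken as pairs, and with a replicate block 4063 genes were called, 1884 higher and 2179 lower, and 12 of the 537 named genes lost their call. TPM give no depth, so no detection limit was set.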

Other observations

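Several gene groups on the lists have not yet been described in full, and calls are those of the limma test over all tested genes. Over all tested genes 17% rose and 19.4% fell, and each count below is to be read beside these shares. The counts of WNT genes and of antioxidant and iron genes, for example, lay near them. Genes of the TGF-β and BMP pathway rose in 8 of 27 and fell in 2 of 27 (5 and 3 without NTC replicate 1), with the ligands *Tgfb3* (0.91) and *Tgfb2* (0.75) and the procollagen protease *Bmp1* (0.798) higher. *Tgfb3* measured 2.94, 3.10 and 2.57 TPM in the NTC libraries against 6.27, 6.00 and 6.45 TPM in the DKO libraries, and the groups did not overlap. NOTCH receptors and targets rose in 7 of 16 and fell in 2 of 16. *Notch3* (0.79) and the target *Hes1* (0.64) were higher, both from a mean below the filter limit of 1 TPM in NTC libraries. Targets and factors of the Hippo pathway rose in 7 of 22 and fell in 3 of 22, with the factor *Tead2* (0.85) higher and the coactivator *Wwtr1* (−0.46) lower. WNT genes gave 4 higher and 5 lower of 23. Adhesion molecules gave 10 higher and 6 lower of 34, with the proteoglycan *Sdc1* (0.99) higher and *Ncam1* (−0.56) lower. Actin and SRF target genes gave 11 higher and 9 lower of 34. *Actg1* measured 1817, 1803 and 1757 TPM in the NTC libraries against 1285, 1218 and 1256 TPM in the DKO libraries, a difference of −0.52 in cytoplasmic γ-actin, and the factor *Srf* itself was lower (−0.45). Clock genes fell in 7 of 17 and rose in 1 of 17 (4 and 2 without NTC replicate 2), with the repressor *Nfil3* lowest. *Nfil3* measured 35.3, 31.9 and 36.8 TPM in the NTC libraries against 15.5, 16.8 and 15.4 TPM in the DKO libraries, a difference of −1.08.

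Among ligands and surface proteins that act on immune cells, 4 of 12 rose and 3 fell. The galectins *Lgals9* (0.75) and *Lgals3* (0.66) were higher. *Lgals3* measured 88.9, 74.02 and 83.3 TPM in the NTC libraries against 133, 127 and 130.2 TPM in the DKO libraries. *Cd274*, which encodes PD-L1, was lower (−0.36), a call that was lost without NTC replicate 3 (−0.26), DKO replicate 1 (−0.34) or DKO replicate 3 (−0.343). NF-κB and chemokine genes gave 5 higher and 1 lower of 16. The BCL2 family and caspases gave 9 higher and 6 lower of 24, with *Bid* (0.49), which promotes apoptosis, higher and the survival factor *Mcl1* (−0.25) lower. In antioxidant and iron genes, 9 of 40 rose (6 without DKO replicate 1) and 8 fell, with the transferrin receptor *Tfrc* (0.54) and the peroxidase *Gpx1* (0.48) higher and the haem oxygenase *Hmox1* (−0.61) lower. Sterol synthesis gave 5 higher (3 without NTC replicate 1) and 10 lower of 30, with squalene epoxidase, *Sqle* (−0.61), lowest. Ribosome biogenesis gave 12 higher and 3 lower of 34, with the methyltransferase *Nop2* (0.49) and the polymerase I subunit *Polr1a* (0.46) higher. Only 1 of that list was lower with the same total or without any untreated library but DKO replicate 3. Chromatin modifiers gave 16 higher and 7 lower of 50 (19 and 4 with the same total, and 4 lower without NTC replicate 2, DKO replicate 1 or DKO replicate 3), with *Hmga2* (0.78) and *Hmga1* (0.56) higher and *Suz12* (−0.34) of the Polycomb complex lower. SR proteins and hnRNPs gave 11 higher and 6 lower of 36, histones 6 and 1 of 18, autophagy 2 and 6 of 27, polyadenylation and RNA decay 1 and 9 of 35, nonsense-mediated decay 0 and 4 of 17, the tricarboxylic acid cycle 5 and 7 of 23, neuronal genes 2 and 3 of 13 and metallothioneins and zinc genes 2 and 2 of 9. Mitochondrial ribosomal proteins gave 7 higher and 15 lower of 75 and the proteasome 4 and 6 of 36, and with the same total these became 12 and 10, and 10 and 4. The higher counts fell to 7 for SR proteins and hnRNPs without DKO replicate 3, to 3 for histones without NTC replicate 1, DKO replicate 1 or DKO replicate 3, and to 1 or 2 for the proteasome without NTC replicates 1 or 3 or DKO replicates 1 or 3. The lower count of polyadenylation and RNA decay was 4 without DKO replicate 1, and with the same total that list gave 4 higher and 6 lower. The tricarboxylic acid cycle turned with the same total, to 8 and 5, and WNT genes to 6 and 5.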
